A study of Homo sapiens with 6 samples.

Results

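The estradiol response that remained in ETV4 knockout clones was described from 4 of the 6 RNA-seq libraries of the series. They came from Ishikawa cells, an established endometrial adenocarcinoma line that responds to estrogen, in which the gene of the transcription factor ETV4 had been knocked out. Each of 2 knockout lines, called clone 1 and clone 2, was grown with 0.1% DMSO, the vehicle, for 1 library and with 10 nM estradiol (E2) for the other. All 4 dishes had been kept for days in hormone-depleted medium without phenol red, with charcoal-treated serum. The labels disagree on the treatment time, with 8 h in the protocol and 1 h in the sample characteristics. The libraries were taken by their labels, the E2 library was set against the DMSO library of the same clone, and the parental libraries were left out of every test. Each knockout line is 1 clone, and nothing in the labels says that dishes were repeated within a clone, so p-values measure only the spread between these libraries.

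Estradiol acts mainly through estrogen receptor alpha, the product of ESR1, a nuclear receptor that binds estrogen response elements or half-sites in DNA, or other factors already bound there, and recruits coregulators. In endometrial epithelium estrogen induces the progesterone receptor and growth factor signals. ETV4 belongs to the PEA3 group of ETS factors with ETV1 and ETV5, which often act downstream of receptor tyrosine kinase and ERK signalling.

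Between 28037392 and 35532428 counts were assigned to genes per library, and 18119 to 18342 genes had at least 1 count. ETV4 had 122 counts after DMSO and 86 after E2 in clone 1, and 71 and 81 in clone 2, against 586 and 1063 in the parental line. The clones thus stood at 14.8% ± 3.52 (SD, n = 2) of the parental level in DMSO and at 10.1% ± 0.449 (SD, n = 2) in E2. The edited position is not given in the labels, so RNA that remains does not show whether protein remains. All 10 endometrial epithelial markers were at 1 CPM or more in at least 1 library (CPM, counts scaled to a common library size by TMM), and their summed level ran from 2990 to 3887 CPM. It was lower after E2 in both clones, at 2990 against 3581 CPM in clone 1 and 3043 against 3887 CPM in clone 2. Of the stromal, leukocyte and endothelial markers 5 of 9, 6 of 8 and 5 of 6 stayed under 1 CPM in all 4 libraries. Their sums ran from 54.1 to 80.3 CPM, from 3.36 to 5.71 CPM and from 2.79 to 4.67 CPM, and no lymphocyte CD3D or CD3E count was found.

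E2 changed a broad set of genes in the clones, and most changes were small. With the clone as a block, 2227 of 14881 tested genes passed edgeR's quasi-likelihood test at an adjusted p of 0.05, which is 15% of those tested. Of these, 1271 were higher after E2 (8.54%) and 956 were lower (6.42%). The median size of a called change was 1.56-fold, and the median log2 change of all tested genes was -0.00. Across tested genes, which are not independent replicates and share their libraries, the log2 changes of the 2 clones had a Pearson r of 0.625.

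The response was then narrowed to genes that moved at least 2-fold in each clone. Among the 1920 called genes that averaged 2 CPM or more, 1475 reached 2-fold in neither clone, 266 in 1 clone only and 3 (MTRNR2L2, ACTA1 and VOPP1) in opposite directions. The remaining 176 genes, 1.18% of those tested, changed at least 2-fold in the same direction in both clones, 139 higher (0.934%) and 37 lower (0.249%). These 176 genes are the ones whose functions are described here, together with lists of genes of known pathways. Where a gene is given a pair of values without a unit, they are its log2 ratios of E2 to DMSO in clone 1 and clone 2, and a single value is its log2 change in the paired fit. The median SD between the clones over the 176 genes was 0.20 on the log2 scale (n = 2), against 0.14 over all tested genes averaging 2 CPM or more. The choice of genes left out those whose clones moved in opposite directions, so this spread is a description only. Because the size rule used these libraries, the counts by direction and function are descriptions, to be read beside the 139 of 176 genes that rose. Counts of called list members are to be read beside the 8.54% of all tested genes called higher and the 6.42% called lower.

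The paired test has 1 residual degree of freedom and takes its spread from all genes together, so its p-values are smaller than 2 clones alone could give. Without the clone block 49 genes were called (0.329% of those tested), 47 higher (0.316%) and 2 lower (0.0134%), all of them among the 2227, and DESeq2's Wald test with the block called 813, of which 809 were among the 2227. Of the 176 genes, 47 were called without the block, 172 in DESeq2 and 176 in limma-voom with it.

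**Figure D1:**
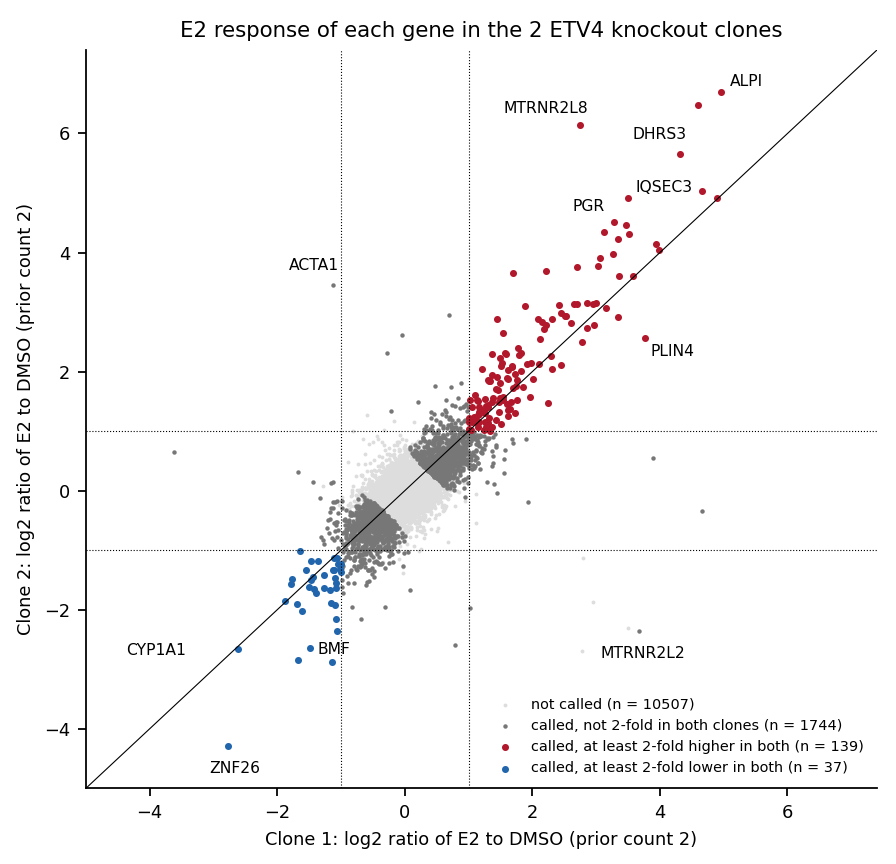
Log2 ratio of E2 to DMSO in clone 1 (horizontal axis) and clone 2 (vertical axis) for tested genes averaging 2 CPM or more, one point per gene. The 139 genes at least 2-fold higher in both clones (red) and the 37 lower (blue) lie beyond the dotted 2-fold lines, and the solid line marks equal change, above which most red points sit.

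The response was larger in clone 2 for 133 of the 176 genes, 103 of the 139 that rose and 30 of the 37 that fell. The median log2 ratio of the higher genes was 1.63 in clone 1 and 1.90 in clone 2, and that of the lower genes was -1.27 and -1.56. The DMSO and E2 levels overlapped between the clones for 5 of the 176 genes, SAMD11, TBC1D16, TFCP2L1, NMNAT2 and CDH18, which were named after their values were seen. In each of them the clones differed in level after DMSO. TFCP2L1, a grainyhead-like transcription factor, stood at 38.2 CPM after DMSO and 77.8 CPM after E2 in clone 1, and at 8.95 and 25.8 CPM in clone 2.

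Genes known to be estrogen-induced in breast cancer cells were largely raised. Of 34 such genes 24 were tested, of which 16 were higher and 1 was lower, against 8.54% and 6.42% of all tested genes. The list's median log2 change was 0.70. PGR, which encodes the progesterone receptor, stood at 7.46 CPM after DMSO and 73 CPM after E2 in clone 1, and at 2.75 and 63.9 CPM in clone 2. Its E2 levels lay far above both DMSO levels, and its log2 change was 3.81 (SE 0.15, adjusted p = 3.15e-132 paired and 0.0447 unpaired, edgeR's quasi-likelihood test). GREB1, a chromatin-bound cofactor of the estrogen receptor, stood at 8.43 CPM after DMSO and 61.2 CPM after E2 in clone 1, and at 10.2 and 67.5 CPM in clone 2. The clones were close to each other under each treatment, and the change passed the test in both fits (adjusted p = 2.98e-83 paired and 0.00785 unpaired, edgeR).

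Other members of the list rose with them. EGR3, an immediate early zinc finger factor, rose at log2 ratios of 2.45 and 2.98, and KCNK15, a potassium channel of the two-pore-domain family, at 2.53 and 2.94. Smaller rises were found for the corepressor NRIP1 (0.97 and 1.33), which is a receptor-induced brake on estrogen signalling, and for the ubiquitin ligase SIAH2 (0.72 and 1.01). RET, a receptor tyrosine kinase, was called at a low level, with 0.256 and 0.805 CPM in clone 1 and 0.106 and 0.697 CPM in clone 2. AGR2, a disulfide isomerase of mucus-producing cells, was the member that fell, with a log2 change of -0.63. TFF1, a classic estrogen target in breast cells, had 0 counts in 3 libraries and 1 count in the E2 library of clone 2, so it was not tested.

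Among the steroid receptors PGR was higher and ESR1 was lower. ESR1 itself stood at 281 CPM after DMSO and 207 CPM after E2 in clone 1, and at 254 and 152 CPM in clone 2, a log2 change of -0.59 (adjusted p = 0.00135 paired and 0.48 unpaired, edgeR). Of 19 tested coregulators and pioneer factors 4 rose and none fell in the paired fit (21.1% called, against 15% of all tested genes), among them NRIP1 and NCOA4 at log2 changes of 1.15 and 0.72. None of the 3 PEA3 genes was called, with log2 changes of -0.03 for ETV4, -0.41 for ETV1 and -0.00 for ETV5. Among the 13 tested PEA3 and ERK feedback genes DUSP5, PHLDA1 and SPRY4 rose, at 0.9, 0.74 and 0.55, and SPRY1 fell, at -0.39. This was a share of 30.8% called, and DESeq2 with the block called 2 and edgeR without it none.

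Enzymes of the cell surface and proteins of microvilli had the highest median of the function classes. All 7 of the 176 genes placed in this class were higher, with a median log2 change of 3.94. ALPI, intestinal alkaline phosphatase, stood at 0.171 CPM after DMSO and 7.28 CPM after E2 in clone 1, and at 0.141 and 21.5 CPM in clone 2. ALPP, placental alkaline phosphatase, stood at 0.256 CPM after DMSO and 7.7 CPM after E2 in clone 1, and at 0.176 and 21.5 CPM in clone 2, and the germ-cell enzyme ALPPL2 (ALPG in RefSeq) at 2.59 CPM after DMSO and 30.4 CPM after E2 in clone 1, and at 2.47 and 50.1 CPM in clone 2. Each was low after DMSO and higher after E2 by a log2 ratio of at least 3.52 in either clone, with the larger rise in clone 2. Their log2 changes were 6.36, 5.9 and 3.94 (adjusted p = 0.0342, 0.0342 and 0.0145 unpaired, edgeR). The remaining alkaline phosphatase gene, ALPL of bone and liver, was tested and not called (log2 change -0.1). The 3 genes are close paralogs, and how reads were split among them is uncertain.

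The promoters of these 3 genes are shown because ALPI and ALPP had the 2 largest changes among the 176 genes and ALPPL2 lies between them, all on the plus strand of chromosome 2. Each sequence holds the 250 bases before the annotated start (RefSeq, GRCh38.p14), at chr2:232455903-232456152 for ALPI, chr2:232378501-232378750 for ALPP and chr2:232406594-232406843 for ALPPL2. They are written 5′ to 3′, with the estrogen receptor half-site AGGTCA in capitals.
ALPI: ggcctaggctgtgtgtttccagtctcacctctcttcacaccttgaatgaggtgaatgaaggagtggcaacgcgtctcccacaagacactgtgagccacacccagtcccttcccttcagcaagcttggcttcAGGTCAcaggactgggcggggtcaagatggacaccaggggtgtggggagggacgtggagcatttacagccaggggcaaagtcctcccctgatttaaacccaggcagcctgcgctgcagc
ALPP: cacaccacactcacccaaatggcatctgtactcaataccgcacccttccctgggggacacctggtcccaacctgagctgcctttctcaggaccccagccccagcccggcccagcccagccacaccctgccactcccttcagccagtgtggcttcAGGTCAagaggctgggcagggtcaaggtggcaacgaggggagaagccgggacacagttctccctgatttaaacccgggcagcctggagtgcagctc
ALPPL2: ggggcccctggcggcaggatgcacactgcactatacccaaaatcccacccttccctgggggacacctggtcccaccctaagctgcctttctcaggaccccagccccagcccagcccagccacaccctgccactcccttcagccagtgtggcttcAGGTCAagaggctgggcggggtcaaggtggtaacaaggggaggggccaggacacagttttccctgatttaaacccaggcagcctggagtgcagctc
The half-site lies on the plus strand, from 119 to 114 bases before the start in ALPI and from 96 to 91 bases before it in ALPP and ALPPL2. In global alignments 216 of 250 bases were identical between ALPP and ALPPL2 (86.4%), and 171 between ALPI and either of them (68.4%), so the 3 matches are not independent. Over windows from 250 bases before to 50 after a start, 16.5% of 27305 genes held at least 1 match to AGGTCA on either strand. Among 11558 tested genes with a window the share was 13.9%. The windows of ALPI, ALPP and ALPPL2 held no full estrogen response element, also with 1 mismatch allowed. Only 110 of the 176 genes were matched to a window by symbol, too few for a share over the set, so that check is void. Among the matched genes alone, 12 of 84 higher ones (14.3%) and 5 of 26 lower ones (19.2%) held AGGTCA. No matched gene held a full estrogen response element without a mismatch. A match is a description of the letters and not evidence of binding.

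ANPEP, aminopeptidase N of brush borders and stroma, stood at 0.256 CPM after DMSO and 9.52 CPM after E2 in clone 1, and at 0.494 and 16.9 CPM in clone 2. COBL, an actin nucleator of microvilli, rose at log2 ratios of 1.72 and 1.3, ESPN, an actin bundler, at 1.17 and 1.33, and the actin motor MYO7A at 1.15 and 1.07. A pseudogene of ESPN, ESPNP, was also counted higher (2.22 and 2.79), and how reads were divided between the gene and its copy is not given. On a list of 24 brush border enzymes and scaffolds 8 of 17 tested members rose and none fell, against 8.54% and 6.42% of all tested genes. The list's median log2 change was 0.53. The list includes the scaffold SLC9A3R1 and the small cadherin CDHR5, whose log2 changes were 0.89 and 0.84. The 3 alkaline phosphatase genes and ANPEP are part of that count. The list was chosen with earlier results of these data known, so the count is a description only.

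**Figure D2:**
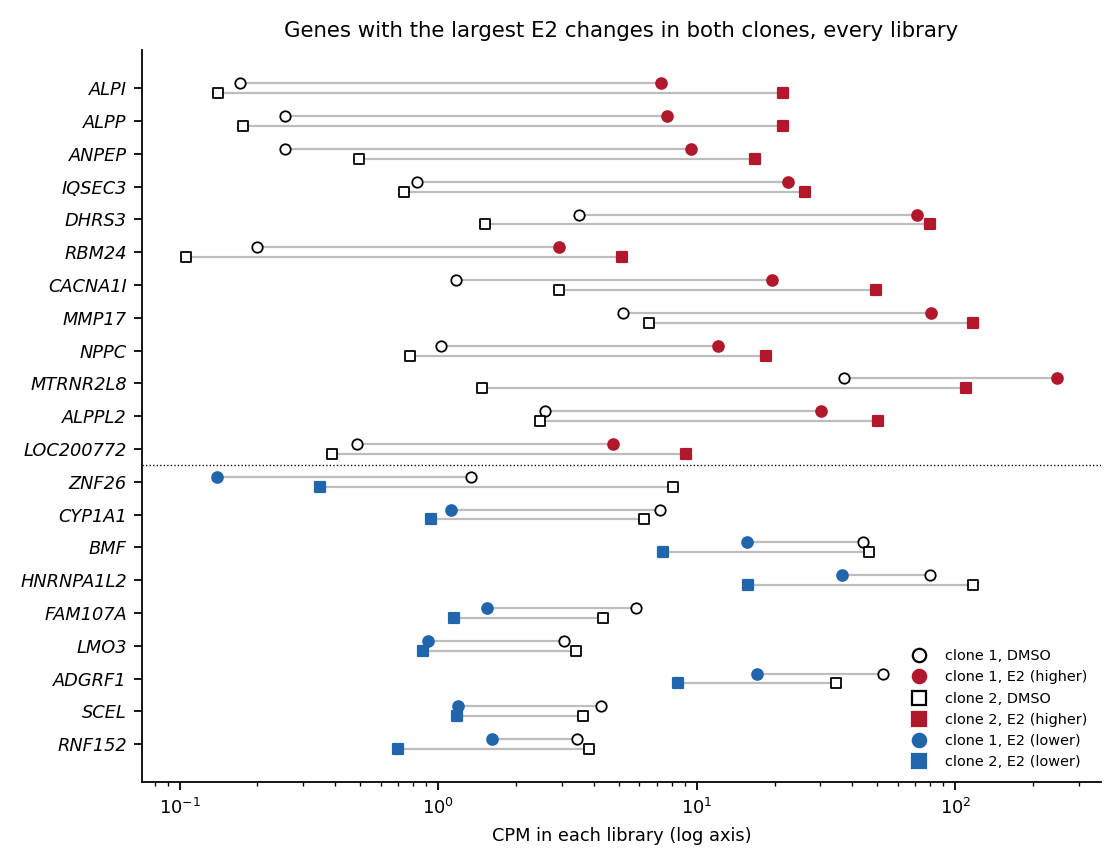
CPM of each library (log axis) for the 12 genes with the largest rise and 9 of the 10 with the largest fall among the 176, with circles for clone 1, squares for clone 2, open symbols for DMSO and filled ones for E2. The open and filled symbols of a gene do not overlap in any row, and the first 3 rows start under 1 CPM.

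Ion channels, transporters and carbonic anhydrases formed a class of 21 genes, of which 18 rose and 3 fell. CACNA1I, a T-type calcium channel subunit, stood at 1.17 CPM after DMSO and 19.5 CPM after E2 in clone 1, and at 2.93 and 49.4 CPM in clone 2. Its log2 ratios of 3.99 and 4.05 differed little between the clones. The calcium-activated chloride channel ANO1 stood at 62.3 CPM after DMSO and 408 CPM after E2 in clone 1, and at 55.1 and 483 CPM in clone 2, and the prostaglandin carrier SLCO2A1 stood at 6.72 CPM after DMSO and 68.8 CPM after E2 in clone 1, and at 9.73 and 74.3 CPM in clone 2. CHRND, the delta subunit of the muscle acetylcholine receptor, rose at log2 ratios of 3.27 and 3.98. The adjusted p without the block was 0.00785 for ANO1, 0.0112 for SLCO2A1 and 0.084 for CACNA1I (edgeR).

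Several carriers of amino acids rose. On a list of amino acid transport and synthesis genes 4 of 20 tested members rose and none fell, a share of 20% called against 15% of all tested genes. SLC6A6, which imports taurine, stood at 45.2 CPM after DMSO and 309 CPM after E2 in clone 1, and at 54.8 and 312 CPM in clone 2. SLC7A5, the light chain of the LAT1 exchanger of large neutral amino acids, stood at 563 CPM after DMSO and 1582 CPM after E2 in clone 1, and at 577 and 1696 CPM in clone 2, and its heavy chain partner SLC3A2 stood at 203 CPM after DMSO and 396 CPM after E2 in clone 1, and at 188 and 365 CPM in clone 2. Both chains were higher after E2 in each clone, SLC7A5 at log2 ratios of 1.49 and 1.56 and SLC3A2 at 0.96 and 0.96. SLC7A2, a carrier of cationic amino acids, rose at 2.3 and 2.88 from a low level. A pseudogene of SLC7A5, SLC7A5P1, was also counted higher (1.34 and 1.84), and how reads were divided between the gene and its copy is not given.

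Carbonic anhydrases convert carbon dioxide to bicarbonate and protons. Of 8 tested genes 2 rose and none fell, a share of 25% called against 15% of all tested genes. The list's median log2 change was -0.09. CA12, which is bound to the outer membrane face, stood at 5.86 CPM after DMSO and 33.9 CPM after E2 in clone 1, and at 4.69 and 36.3 CPM in clone 2. The cytosolic CA2 stood at 37.1 CPM after DMSO and 115 CPM after E2 in clone 1, and at 19.1 and 77.9 CPM in clone 2.

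Mucins, matrix proteins and secreted enzymes rose in 16 of 17 cases. MMP17, a membrane-anchored matrix metalloproteinase, stood at 5.18 CPM after DMSO and 80.7 CPM after E2 in clone 1, and at 6.56 and 117 CPM in clone 2. THBS1, the matrix glycoprotein thrombospondin 1, stood at 21.5 CPM after DMSO and 219 CPM after E2 in clone 1, and at 27.6 and 521 CPM in clone 2. The gel-forming mucins MUC5B and MUC5AC were both higher, MUC5B at 6.21 CPM after DMSO and 51.1 CPM after E2 in clone 1, and at 6.59 and 91.1 CPM in clone 2, and MUC5AC at 2.96 CPM after DMSO and 10.6 CPM after E2 in clone 1, and at 5.32 and 21.7 CPM in clone 2. Both mucins were higher in each E2 library than in either DMSO library. PLAT, tissue plasminogen activator, rose at log2 ratios of 2.3 and 2.05, and the matrix protease ADAMTS9 at 3.0 and 3.15. In clone 2 ADAMTS9 had 3 counts after DMSO and 42 after E2, a ratio of 13.8 with a 95% exact interval of 4.42 to 69.8 for counting error only. The list of matrix proteases and inhibitors, which does not include MMP17, was mixed, with 2 of 16 tested members higher and 5 lower. The 2 higher ones were PLAT and ADAMTS9, and the lower ones included PLAU, the urokinase gene, at -0.94 and ADAMTS5 at -0.8.

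Genes of the receptive uterine epithelium moved in both directions. On that list 2 of 16 tested members rose and 4 fell. MUC16, a membrane mucin, had a log2 change of 0.7, and SPDEF, a transcription factor of mucus-secreting cells, rose from under 1 CPM to 1.29 and 1.18 CPM in clones 1 and 2. C3, a complement component, fell at -0.85 and MUC20 at -0.71. The class labelled glycosylation held 3 genes, all higher, and mixed enzymes that add sugars with 1 that removes them. The fucosyltransferases FUT3 and FUT5 and the hexosaminidase HEXDC had log2 changes of 1.66, 1.87 and 1.89. FUT3 and FUT5 are close copies, so their division is uncertain.

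Secreted ligands, their binding proteins and receptors held 14 genes that rose and 6 that fell. NPPC, the precursor of C-type natriuretic peptide, stood at 1.02 CPM after DMSO and 12.1 CPM after E2 in clone 1, and at 0.776 and 18.5 CPM in clone 2. TGFA, an EGF receptor ligand, stood at 239.7 CPM after DMSO and 513 CPM after E2 in clone 1, and at 159 and 481 CPM in clone 2. WNT11, a ligand of noncanonical Wnt signalling, rose at log2 ratios of 1.7 and 3.65, with an SD between the clones of 1.38 (n = 2). FGF9, a uterine growth factor, rose at 1.17 and 1.15, and PTGER3, a prostaglandin E receptor, at 1.46 and 1.7. IGFBP3, which binds insulin-like growth factors, stood at 113 CPM after DMSO and 43.1 CPM after E2 in clone 1, and at 171 and 51.7 CPM in clone 2. ADGRF1, an adhesion G protein-coupled receptor, stood at 52.6 CPM after DMSO and 17.1 CPM after E2 in clone 1, and at 34.5 and 8.5 CPM in clone 2. IGFBP3 and ADGRF1 were each lower in both E2 libraries than in either DMSO library.

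The insulin-like growth factor list showed opposite changes among its binding proteins. Of 11 tested members 2 rose and 3 fell. IGFBP4 rose at log2 ratios of 1.34 and 3.03, from 0.569 to 1.54 CPM in clone 1 and from 0.353 to 3.34 CPM in clone 2, while IGFBP5 and IGFBP6 fell, at -0.67 and -0.81. IGFBP6 averaged 1.56 CPM and was called in neither DESeq2 nor limma-voom. Of this list DESeq2 with the block called 3 and edgeR without it none. On the ERBB list TGFA and RET rose and none of the 11 tested members fell in the paired fit. The 18.2% called was near the 15% of all tested genes, and DESeq2 called 1. At an unadjusted p under 0.05 in edgeR 3 members were higher and 3 lower. On the Wnt list 5 of 18 tested members rose and 1 fell, including NKD2 at 0.94 and TCF7 at 0.83, a share of 33.3% called.

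Intracellular signalling genes rose in 15 of 16 cases, where most of the 176 genes rose. IQSEC3, an exchange factor for ARF GTPases, stood at 0.826 CPM after DMSO and 22.5 CPM after E2 in clone 1, and at 0.74 and 26.3 CPM in clone 2, with a log2 change of 4.94 (SE 0.2, adjusted p = 0.00785 unpaired, edgeR). PIM1, a serine/threonine kinase, rose at log2 ratios of 1.57 and 2.31, and CISH, a suppressor of cytokine signalling, at 1.13 and 1.53. RAPGEFL1, a predicted exchange factor for RAP GTPases, rose at 1.72 and 1.96. PLK2, a polo-like kinase and p53 target, was the member that fell and stood at 406 CPM after DMSO and 192 CPM after E2 in clone 1, and at 353 and 114 CPM in clone 2. On a list of small GTPases and their regulators 5 of 23 tested members rose and 1 fell, with RASGRP1 at 1.35, RHOU at 1.0 and RHOV at -1.04. The share called was 26.1%, against 15% of all tested genes. MLPH, melanophilin, which tethers vesicles to actin motors, led a class of 4 raised vesicle traffic genes and stood at 3.47 CPM after DMSO and 42.1 CPM after E2 in clone 1, and at 4.23 and 52 CPM in clone 2.

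Transcription regulators rose in 16 cases and fell in 4, a split near that of the 176 genes as a whole. Beside PGR, GREB1 and EGR3, the corepressor gene CBFA2T3 stood at 4.9 CPM after DMSO and 38.4 CPM after E2 in clone 1, and at 6.94 and 61.4 CPM in clone 2, and HES2, a repressor of the hairy and enhancer of split family, at 43.8 CPM after DMSO and 158 CPM after E2 in clone 1, and at 64.1 and 215 CPM in clone 2. PPARGC1B, a coactivator of mitochondrial genes, rose at log2 ratios of 1.37 and 1.49. ZNF26, a zinc finger gene, had the largest fall and stood at 1.34 CPM after DMSO and 0.14 CPM after E2 in clone 1, and at 8.07 and 0.348 CPM in clone 2. The clones differed in its level after DMSO, and both were under 0.4 CPM after E2. LMO3, a LIM-domain cofactor, fell at log2 ratios of -1.69 and -1.9. Of 19 tested immediate early factors 3 rose and 1 fell, with EGR1 at 0.74, FOSL2 at 0.68 and JUNB at -0.88, which is 21.1% called against 15% of all tested genes. RBM24, an RNA-binding splicing factor, was outside this class and stood at 0.199 CPM after DMSO and 2.94 CPM after E2 in clone 1, and at 0.106 and 5.12 CPM in clone 2. In clone 2 its DMSO library held 3 counts, and the ratio there was 48.4 with a 95% exact interval of 16.2 to 237 for counting error only.

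Metabolic genes rose in 10 cases and fell in 4. DHRS3, which reduces retinaldehyde to retinol, stood at 3.5 CPM after DMSO and 71.2 CPM after E2 in clone 1, and at 1.52 and 79.8 CPM in clone 2. Its log2 change was 4.9 (SE 0.17, adjusted p = 0.0166 unpaired, edgeR). Both lipid droplet coat genes PLIN4 and PLIN5 rose, PLIN5 at 0.626 CPM after DMSO and 7.03 CPM after E2 in clone 1, and at 0.529 and 7.21 CPM in clone 2, and G0S2, an inhibitor of fat breakdown, stood at 1.05 CPM after DMSO and 9.27 CPM after E2 in clone 1, and at 0.776 and 12.6 CPM in clone 2. CKB, brain-type creatine kinase, stood at 72.2 CPM after DMSO and 313 CPM after E2 in clone 1, and at 46.7 and 272 CPM in clone 2. PLIN4 was higher by more in clone 1 (3.76 and 2.56), unlike most of the set.

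Other genes of the retinoid list that changed mostly fell. With DHRS3 counted, 2 of 20 tested members were higher and 6 lower, and DESeq2 called 3. STRA6, the retinol importer, stood at 2.45 CPM after DMSO and 1.4 CPM after E2 in clone 1, and at 5.01 and 2.26 CPM in clone 2. The nuclear receptor gene RARB fell at -0.92, while RARA rose at 0.63.

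CYP1A1, a monooxygenase that hydroxylates estrogens and other aromatic compounds, stood at 7.23 CPM after DMSO and 1.12 CPM after E2 in clone 1, and at 6.27 and 0.94 CPM in clone 2. Its log2 ratios of -2.62 and -2.66 differed little between the clones, and it was called in both fits (adjusted p = 1.21e-26 paired and 0.0342 unpaired, edgeR). On a list of enzymes that make or inactivate estrogens 6 of 16 tested members fell and none rose, with a median log2 change of -0.24. DESeq2 called 2 of the 16. The 6 include the sulfotransferase SULT1E1, which inactivates estradiol, at 23.6 CPM after DMSO and 14 CPM after E2 in clone 1, and at 7.37 and 3.73 CPM in clone 2. AKR1C1 and AKR1C2, aldo-keto reductases acting on steroids, fell at -0.82 and -1.03, and as near-identical copies they are uncertain. Of 9 tested genes of the aryl hydrocarbon receptor battery 1 rose and 2 fell, NQO1 at -0.44 beside CYP1A1, and CYP1B1 was not called at 0.18. HSD11B2, which inactivates glucocorticoids, rose at log2 ratios of 1.59 and 2.3.

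**Figure D3:**
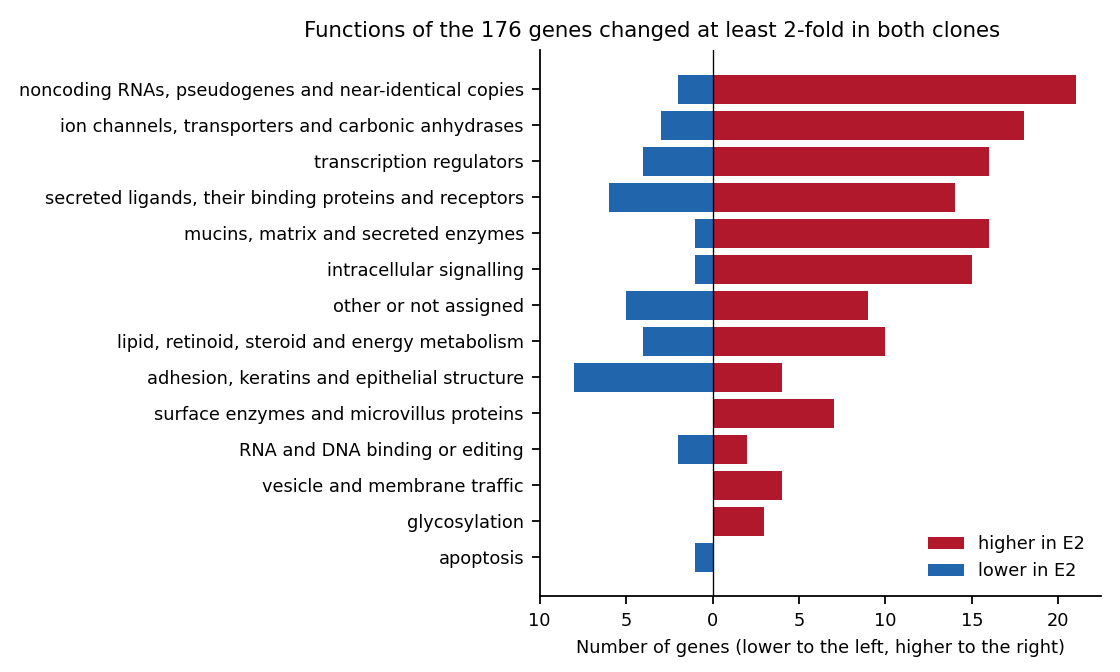
Number of the 176 genes in each function class that rose (red, to the right) or fell (blue, to the left) after E2. The adhesion and keratin class has more falls than rises, 8 against 4, while 139 of the 176 genes as a whole rose. Classes were assigned after the values were known.

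Adhesion, keratin and epithelial structure genes had more falls (8) than rises (4), which among the classes of more than 1 gene was seen in no other. KRT5, a basal-type keratin, stood at 101 CPM after DMSO and 45 CPM after E2 in clone 1, and at 147 and 46 CPM in clone 2. KRT17 stood at 16.3 CPM after DMSO and 7.45 CPM after E2 in clone 1, and at 29.6 and 11.7 CPM in clone 2. Both were lower in each E2 library than in either DMSO library. The integrin subunits ITGB3 and ITGB6 fell, ITGB3 at log2 ratios of -1.15 and -1.88 and ITGB6 at -1.12 and -1.14. SDK2, an immunoglobulin-type adhesion molecule, rose at 2.97 and 2.79.

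The keratin list, which counts KRT5 and KRT17 again, shows the same direction over more genes. Of 12 tested keratins 6 fell and none rose, with a median log2 change of -0.72. KRT8, a simple-epithelial keratin, stood at 1062 CPM after DMSO and 671 CPM after E2 in clone 1, and at 1065 and 601 CPM in clone 2, and its partner KRT18 at 675 CPM after DMSO and 442 CPM after E2 in clone 1, and at 615 and 357 CPM in clone 2. KRT80 fell at -0.8. KRT8 and KRT18 are also epithelial markers, and they are the 2 markers of that list that were called lower. SOX17 was the 1 marker called higher, at a log2 change of 0.6. The summed level given above fell in both clones. The falls of KRT8 and KRT18 make up all of that fall in clone 1 and most of it in clone 2. In bulk RNA, fewer cells of a type and less RNA per cell cannot be told apart, and the part of cell identity in the keratin result was not tested. Of 15 tested tight junction genes 3 fell and none rose, CLDN1 at -0.81, CLDN16 at -1.24 and CLDN9 at -1.67, and the 20% called was near the 15% of all tested genes. None of the 12 keratins was called without the block, where 5 had an unadjusted p under 0.05 in edgeR, and DESeq2 with the block called 5.

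Notch pathway genes moved in both directions. Of 14 tested members 2 rose and 5 fell, with a median log2 change of -0.39. The share called was 50%, against 15% of all tested genes. DESeq2 with the block called 5 and edgeR without it none. Those that fell were the ligand JAG1, the receptor NOTCH3 and the target genes HES1, HEYL and NRARP. HES1 stood at 129 CPM after DMSO and 79.5 CPM after E2 in clone 1, and at 145 and 61.8 CPM in clone 2. NRARP, a feedback inhibitor, fell at log2 ratios of -0.55 and -1.33. The 2 that rose were the ligand DLL1, at 0.98, and LFNG, a glycosyltransferase that modifies Notch receptors, which stood at 30.1 CPM after DMSO and 66.5 CPM after E2 in clone 1, and at 35.1 and 85.4 CPM in clone 2. The related gene MFNG, outside the list, also rose, at 1.55 and 2.65. In the TGF-beta and BMP list 4 of 15 tested members fell and none rose, with the ligand TGFB2 at -0.97 and the BMP targets ID1 and ID3 at -0.91 and -0.79. This was a share of 26.7% called, and DESeq2 with the block called 2 and edgeR without it none.

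BMF, a BH3-only protein that promotes apoptosis, stood at 44 CPM after DMSO and 15.6 CPM after E2 in clone 1, and at 46.4 and 7.38 CPM in clone 2. It was lower in each E2 library than in either DMSO library, by more in clone 2. Of 14 tested BCL2 family genes it was 1 of 2 that fell, with BCL2L1 at -0.46, and PMAIP1, another BH3-only gene, rose at 0.75. The share called was 21.4%, against 15% of all tested genes.

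Of 24 tested ribosome biogenesis genes 9 rose, none fell and 15 were not called, with a median log2 change of 0.34. DESeq2 with the block called 6 of them, and edgeR without the block called none, where 10 had an unadjusted p under 0.05. Lists of cell cycle genes held smaller shares of calls than all tested genes. NOP2, an rRNA methyltransferase, stood at 106 CPM after DMSO and 167 CPM after E2 in clone 1, and at 124 and 185 CPM in clone 2, and GNL3 and RRS1 rose at 0.55 and 0.55. Of 34 DNA replication genes 2 rose, UHRF1 at 0.73 and POLE at 0.65, a share of 5.88% called against 15% of all tested genes. Of 26 mitosis genes 2 fell, KIF20A at -0.49 and CDC25C at -0.41. Among 22 G1 regulators CCND2, a D-type cyclin, rose and stood at 14.8 CPM after DMSO and 39.6 CPM after E2 in clone 1, and at 15.9 and 30.7 CPM in clone 2. CDKN1C, a kinase inhibitor, fell and stood at 37.1 CPM after DMSO and 19.8 CPM after E2 in clone 1, and at 29.3 and 10.8 CPM in clone 2. None of 21 tested unfolded protein and stress response genes was called by edgeR, DESeq2 or limma-voom with the block, and 2 had an unadjusted p under 0.05 in edgeR. Across all lists, calls without the block were few, at most 4 in a list.

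Of 22 tested glycolysis and hypoxia genes 4 rose and none fell, with BNIP3 at 1.08, and the share called of 18.2% was near the 15% of all tested genes. VEGFA, a vascular growth factor, stood at 65.3 CPM after DMSO and 109 CPM after E2 in clone 1, and at 60.6 and 105 CPM in clone 2.

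**Figure D4:**
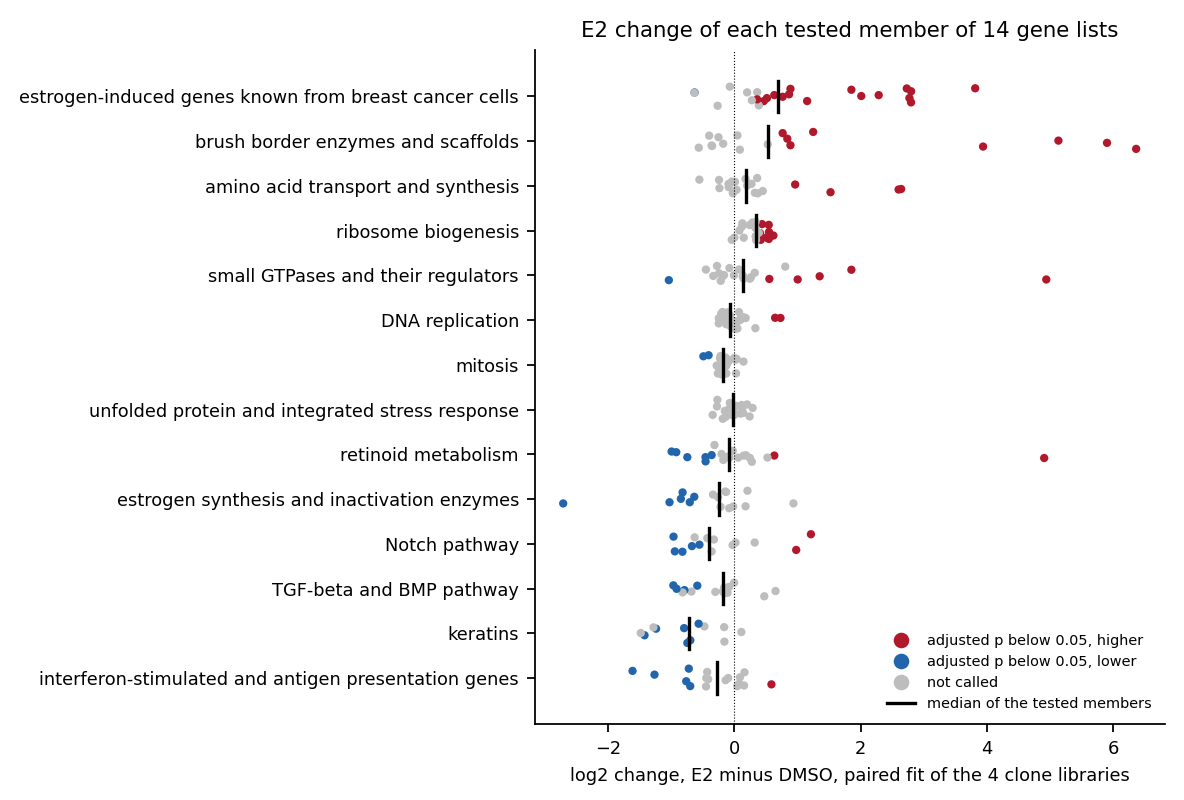
Log2 change (E2 minus DMSO, paired fit) of each tested member of 14 lists, one point per gene, coloured where the adjusted p was below 0.05, with a bar at each list's median. The keratin median lies at -0.72 and that of ribosome biogenesis at 0.34, and the members of the stress response list cluster around 0 with none called.

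Position in the genome was a property that the choice of genes had not used. In RefSeq gene order (GRCh38.p14, used for the order only), 172 of the 176 genes could be placed among 14597 tested genes. Of these, 44 (25.6%) lay in 16 runs in which neighbouring members had at most 2 other tested genes between them. In all 16 runs the members moved in 1 direction, which is to be read beside the 139 of 176 genes that rose. No comparison with chance was made, and some runs hold overlapping genes or copies, whose reads may be shared. The genes of these runs were named after their values were seen.

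The longest run, on chromosome 2, held 6 members in the order NPPC, ALPP, ALPPL2, ALPI, ECEL1 and CHRND. ECEL1, an endopeptidase-like membrane protein, stood at 2.48 CPM after DMSO and 11.2 CPM after E2 in clone 1, and at 2.54 and 18.4 CPM in clone 2. Of the 2 tested genes between members, PRSS56 was also called at a mean under 2 CPM (log2 ratio 3.52 in clone 1, 0 counts after DMSO in clone 2), and DIS3L2 was called at a log2 change of 0.81. On the outer sides PTMA, PDE6D and COPS7B were not called, with changes from -0.09 to 0.16, and beyond CHRND TIGD1 and EFHD1 were called at 0.46 and 0.94 and EIF4E2 was not.

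A run on chromosome 17 held SLC16A3, TEX19, HEXDC, C17orf62 and NARF. SLC16A3, the lactate exporter MCT4, stood at 46.2 CPM after DMSO and 133 CPM after E2 in clone 1, and at 27.8 and 123 CPM in clone 2. SECTM1, which lies among them, rose at log2 ratios of 3.24 and 3.84 at a mean under 2 CPM, and CSNK1D was not called (0.22). On chromosome 1 the 4 adjacent genes HES2, ESPN, TNFRSF25 and PLEKHG5 rose at 1.8, 1.25, 1.56 and 1.23, while the 3 tested genes before them, ICMT, GPR153 and ACOT7, were not called. Of the 3 after them NOL9 and ZBTB48 were not called (0.26 and 0.34), and KLHL21 rose at 0.48. On chromosome 12 IQSEC3 stood next to the GABA and betaine carrier genes SLC6A12 and SLC6A13, at log2 changes of 4.94, 2.77 and 1.91, and the next gene, KDM5A, was not called (0.07). Other runs paired PLIN4 with PLIN5 on chromosome 19 and MUC5AC with MUC5B on chromosome 11.

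**Figure D5:**
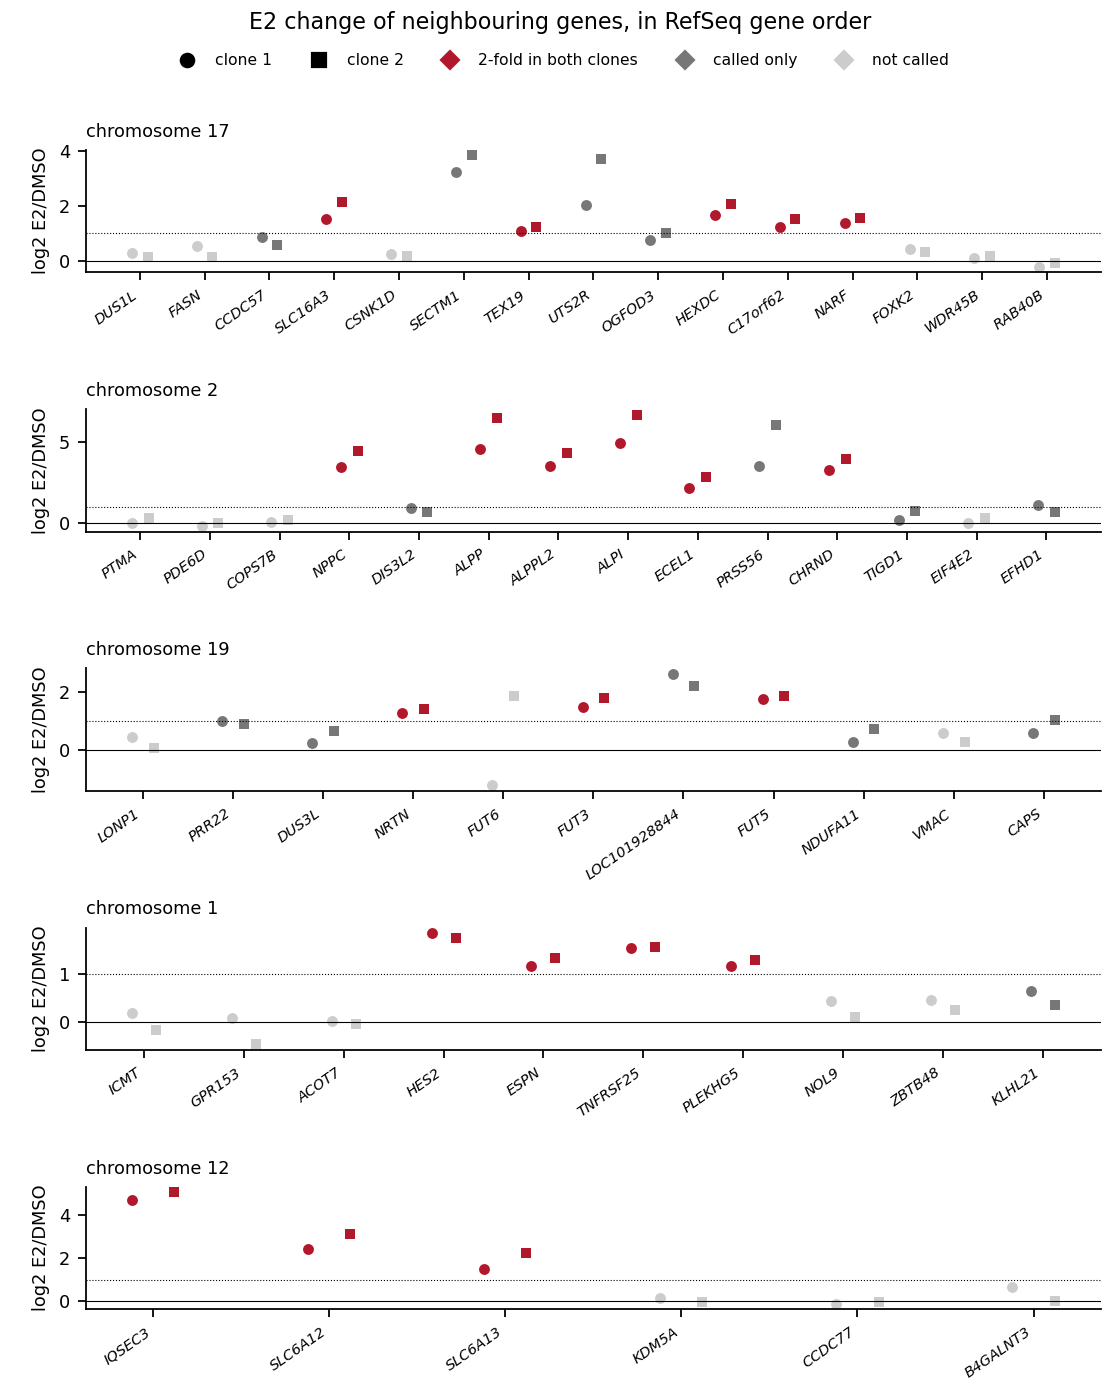
Log2 ratio of E2 to DMSO in clone 1 (circles) and clone 2 (squares) for 5 runs of neighbouring genes, each with up to 3 tested genes on either side, in RefSeq order along the horizontal axis without scale. Red points are genes at least 2-fold changed in both clones, and the chromosome 1 run of 4 red genes is preceded by 3 genes near 0.

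Noncoding RNAs, pseudogenes and near-identical copies made up 23 of the 176 genes, 21 higher and 2 lower. MTRNR2L8, a nuclear near-copy of mitochondrial ribosomal RNA sequence, stood at 37 CPM after DMSO and 248 CPM after E2 in clone 1, and at 1.48 and 109.8 CPM in clone 2, with the largest SD between clones of the set, 2.41 on the log2 scale (n = 2). MIR17HG, the host transcript of a microRNA cluster, rose at log2 ratios of 1.33 and 1.0. LOC200772, an uncharacterised transcript, stood at 0.484 CPM after DMSO and 4.72 CPM after E2 in clone 1, and at 0.388 and 9.12 CPM in clone 2. HNRNPA1L2, a near-copy of HNRNPA1 that was placed among the RNA-binding genes, fell at log2 ratios of -1.14 and -2.89. Counts of such copies depend on how reads that match several places were treated, which is not given in the sources used here.

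Among the other large falls, FAM107A, an actin-associated protein, stood at 5.81 CPM after DMSO and 1.54 CPM after E2 in clone 1, and at 4.34 and 1.15 CPM in clone 2. SCEL, sciellin of the cornified envelope, fell at log2 ratios of -1.79 and -1.56, and RNF152, a ubiquitin ligase of lysosomes, at -1.07 and -2.36. APOBEC3B, a cytidine deaminase, stood at 6.49 CPM after DMSO and 2.17 CPM after E2 in clone 1, and at 5.08 and 1.99 CPM in clone 2. All 4 were lower in each E2 library than in either DMSO library.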

How the data were processed

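Poly(A) RNA of the 4 knockout libraries was counted by the authors, and the deposited values used here are whole-number counts per gene symbol. Per the submitters' processing notes, HISAT2, SAMtools, Subread and DESeq2 were used with hg19. Their settings, the annotation and the use of strand are not given in the sources used here. Column names ending in DMOS and ER were read as DMSO and E2 by the clone and treatment in the sample titles. A second deposited table of normalized values was not used.

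Genes were kept by filterByExpr (14881 of 26364 genes, of which 6257 had 0 counts in the 4 libraries), scaled by TMM and tested with edgeR 4.0.16 (R 4.3.3, quasi-likelihood test, Benjamini-Hochberg adjustment over all tested genes), with the clone as a replicate block. The clone in the labels pairs the libraries, and across genes clone 1 minus clone 2 had an r of 0.681 between the treatments. Standard errors are the log2 change over the square root of F. Ratios within a clone used a prior count of 2. Alternatives were DESeq2 1.42.0, limma-voom (limma 3.58.1), other scaling, filters and thresholds, no block and left-out libraries, and the procedure was tested on simulated data. List members that failed the filter were not tested, and a gene present in 1 treatment alone could pass it.

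Named genes were the 12 highest and 10 lowest changes of those at least 2-fold changed in both clones, PEA3 and receptor genes, up to 4 called members per list of 37 lists and up to 5 per function class. Members and lists were chosen with earlier results of these data known, and classes were assigned after the values were seen. Promoters came from RefSeq tables (GRCh38.p14), matched by symbol. Results for some genes that met these rules are not reported here.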

Additional observations from a re-analysis of the deposited data

Results flagged for a closer look

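A total of 3 called genes moved at least 2-fold in opposite directions in the 2 clones, and in each the single DMSO and E2 libraries of a clone set the direction. The difference between the clones was not tested. MTRNR2L2, a near-copy of mitochondrial ribosomal RNA, had 971 counts after DMSO and 10039 after E2 in clone 1 but 9143 and 1808 in clone 2, so its log2 ratio in clone 1 minus that in clone 2 was 6.02. ACTA1, skeletal muscle actin, had 387 and 144 counts in clone 1 and 32 and 374 in clone 2, a difference of -4.57. VOPP1, a vesicular protein gene, had 1375 and 2285 counts in clone 1 and 2786 and 722 in clone 2, a difference of 2.99. All 3 passed the paired test, which takes its spread from all genes, although their 2 clones disagree. They are among 22 called genes whose sign differed between the clones, and none is among the 176 genes.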

How the results depend on the processing

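The paired counts rest on the replicate block. Without it 49 genes were called (47 higher and 2 lower) in place of 2227, and 47 (45 higher and 2 lower) in place of the 176 changed at least 2-fold in both clones. With the block, DESeq2 called 813 genes (531 higher and 282 lower), and an adjusted p of 0.01 left 1374 (811 and 563). Fits without the block that left out 1 library each, in which the lone library is assumed to vary like the others, called 0 to 352 genes (0 to 208 higher and 0 to 144 lower). The fit at 0, without the DMSO library of clone 1, had 1324 genes at an unadjusted p under 0.05 in edgeR. The fits called 352 without the E2 library of clone 1, 12 without the DMSO library of clone 2 (12 higher) and 191 without the E2 library of clone 2 (145 and 46). With 1 clone alone, where no test is possible, 286 to 345 genes moved 2-fold (209 to 216 higher and 70 to 136 lower). A bar of 1.5-fold in both clones gave 639 genes (389 and 250), 3-fold gave 73 (67 and 6), and a mean of at least 10 CPM gave 88 (76 and 12). Other scaling, filters, prior counts, a mean of 1 CPM and limma-voom kept both counts within 1.5 times. Among 130 named genes 111 calls of the paired fit were lost without the block, and 32 were lost in DESeq2. Only ETV5 changed sign, from -0.00 to 0.0038 with median-ratio scaling and 0.0039 in DESeq2, and it was called in neither. Allowing no gene or 5 genes between neighbours, chosen after seeing the data, put 28 or 54 genes in runs. Counts limit precision for genes near 0, such as RBM24 and ADAMTS9 with 3 counts in a library.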

Other observations

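Interferon-stimulated and antigen presentation genes were mostly lower where they changed. Of 18 tested members 5 fell and 1 rose in the paired edgeR test, and DESeq2 with the block called none of them (7 had an unadjusted p under 0.05 in edgeR). IFIT1, an antiviral effector, stood at 2.88 CPM after DMSO and 1.05 CPM after E2 in clone 1, and at 1.87 and 0.906 CPM in clone 2. IRF9, a transcription factor of interferon signalling, rose at a log2 change of 0.59.

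Metallothioneins, which bind zinc and copper, also fell. Of 10 tested genes of zinc handling 4 fell and 1 rose, and DESeq2 called 2. MT1X stood at 17 CPM after DMSO and 7.31 CPM after E2 in clone 1, and at 11.4 and 8.08 CPM in clone 2, and MT2A at 20.3 CPM after DMSO and 10.7 CPM after E2 in clone 1, and at 19.8 and 12.1 CPM in clone 2. The zinc exporter SLC30A1 rose at log2 ratios of 0.47 and 1.29, and SLC30A2 fell at -0.52 and -1.58. Of 15 tested p53 target genes 4 fell and none rose, TP53INP1 at -0.68 and FAS at -0.51 among them. ABC transporter genes split, with 3 of 17 tested members higher and 4 lower. The cholesterol exporters ABCA1 and ABCG1 were both lower, ABCA1 at 16.4 CPM after DMSO and 8.96 CPM after E2 in clone 1, and at 13 and 7.73 CPM in clone 2, and ABCG1 at log2 ratios of -2.14 and -1.34, while ABCA3, a lipid transporter, rose at 1.13 and 1.17. Among 12 lineage transcription factors SOX17 rose (0.6) and HOXA13 fell (-0.58), among 12 epithelial and mesenchymal identity genes GRHL2 and FN1 fell (-0.46 and -0.49), and of 6 tested chemokines and cytokines CCL28 fell (-0.49).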
